A study of Mus musculus with 4 samples.

Results

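The genes described here are 10 of the 32285 genes in the count matrices. They encode the 3 D-type cyclins (Ccnd1, Ccnd2, Ccnd3), their kinases Cdk4 and Cdk6, the CIP/KIP inhibitors Cdkn1a and Cdkn1b, the INK4 inhibitors Cdkn2c and Cdkn2d, and the pocket protein Rb1. They were chosen by symbol, and all 10 were found in both matrices. The study profiled single bone marrow cells of 2 male mice at 3 months of age, both of genotype Tppp3CreER LSLTdTomato. In such mice a tamoxifen-dependent Cre recombinase is expressed where Tppp3 is active and turns on the red reporter tdTomato for good. Both mice received tamoxifen at P0 and P3, that is on postnatal days 0 and 3. Cells negative for lineage antigens and positive for Sca-1 and Kit were sorted from each mouse by tdTomato, the positive cells into one tube and the negative cells into another. The submitters call these cells HSCs, haematopoietic stem cells, although this gate also takes in multipotent progenitors. Each of the 4 populations, tdTomato-positive or -negative cells of 1 mouse, carried its own hashtag antibody, and the cells were run with 2 Chromium chemistries of 10x Genomics, GEM-X and v3.1. Every group therefore shares genotype, tamoxifen, age and sex, there was no untreated animal, and the labels compare the tdTomato gates and the chemistries only.

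D-type cyclins join CDK4 or CDK6 in response to mitogens, and the active kinase phosphorylates the retinoblastoma protein, which then releases E2F transcription factors and lets the cell pass from G1 into S phase. INK4 proteins bind CDK4 and CDK6 themselves, whereas CIP/KIP proteins bind cyclin-CDK complexes, restrain CDK2, and can also help to assemble the cyclin D complexes. In bone marrow, CDK6 is known for its link to the exit of stem cells from quiescence, and CIP/KIP and INK4 inhibitors for keeping stem cells quiescent.

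The genes lie apart on the mouse genome (mm10, GENCODE M21 gene models): Ccnd1 on chromosome 7, Ccnd2 and Cdkn1b on 6, Ccnd3 and Cdkn1a on 17, Cdk4 on 10, Cdk6 on 5, Cdkn2c on 4, Cdkn2d on 9 and Rb1 on 14. A gene on the other strand that is also a row of the matrices overlaps Ccnd1, Ccnd2, Ccnd3, Cdk4, Cdk6 and Rb1 (Tspan31 in the case of Cdk4). No source used here says if strand entered the counting, so that it is not known here if any reads of such neighbours were counted for the genes named. The upstream promoter sequence, 250 bases ending just before the start site, was found in the RefSeq table (GRCm38.p6) for 7 of the 10 genes. Those windows were searched on both strands for the E-box CACGTG, bound by MYC and related factors, for an E2F site written as TTTNNCGC, and for the cell cycle element TTTGAA. Cdk4 held 4 E-boxes and Cdk6 held 1, at position -220, as well as 1 match to TTTNNCGC at position -198, and no other window held any of these letters. Of 32851 promoter windows of the same length, 6.02% held the E-box, 4.28% the E2F site and 15.99% the TTTGAA element, and 0.0609% held at least 3 E-boxes. Shown next are the window of Cdk4, a gene with higher RNA in dividing cells below, with its E-boxes in capitals at positions -172, -118, -98 and -11 before the start, and, as examples of windows with no match, 1 of Ccnd3 and that of Cdkn1b. The windows of Cdkn1a, Cdkn2c and Cdkn2d and the second one of Ccnd3 held no match either, and Cdkn1a, Cdkn2c and Cdkn2d RNA was also higher in dividing cells, so that no relation between match and RNA is read from these windows. The windows are chr10:127063285-127063534 for Cdk4, chr17:47504801-47505050 for Ccnd3 and chr6:134920151-134920400 for Cdkn1b, all on the plus strand. A match is a description of the letters and not evidence of binding.
Cdk4: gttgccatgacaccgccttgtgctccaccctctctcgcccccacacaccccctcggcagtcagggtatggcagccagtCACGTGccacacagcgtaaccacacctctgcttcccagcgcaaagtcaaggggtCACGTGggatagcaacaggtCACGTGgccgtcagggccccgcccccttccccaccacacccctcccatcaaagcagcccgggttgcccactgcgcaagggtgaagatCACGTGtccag
Ccnd3: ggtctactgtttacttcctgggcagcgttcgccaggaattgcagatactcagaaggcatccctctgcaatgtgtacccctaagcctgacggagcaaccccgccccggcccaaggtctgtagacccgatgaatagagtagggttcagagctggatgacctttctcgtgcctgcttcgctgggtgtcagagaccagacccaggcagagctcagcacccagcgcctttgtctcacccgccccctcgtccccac
Cdkn1b: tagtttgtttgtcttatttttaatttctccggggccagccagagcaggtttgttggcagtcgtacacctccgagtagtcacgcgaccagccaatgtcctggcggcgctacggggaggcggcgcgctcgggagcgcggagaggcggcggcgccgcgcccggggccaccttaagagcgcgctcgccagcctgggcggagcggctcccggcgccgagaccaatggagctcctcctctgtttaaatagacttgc

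The GEM-X matrix held 20511 cell barcodes with 234563105 gene UMIs (unique molecular identifiers, 1 for each captured RNA molecule), and the v3.1 matrix 17755 barcodes with 178214937. No barcode was shared between the libraries. After filters on quality, 32330 cells carried exactly 1 hashtag, and 30546 of these had the 4000 UMIs to which each cell was thinned before it was classed. Kit, the gene of a sorted antigen, stood at 290 and 370 CPM (a gene's UMIs scaled to the total of the summed cells) in mice 1 and 2, and Ly6a, which encodes Sca-1, at 63.9 and 58.1. A cell was called dividing when at least 24 of 82 S and G2/M genes, none of them a gene described here, were detected, which gave 8587 dividing and 21959 non-dividing cells. The lists cover S and G2/M only, so that the non-dividing cells can include cells in G1 beside resting ones, which were not told apart. A lineage-marker class was given by the number of its 12 markers detected in the thinned cell: at least 5 for the HSC-like class, 4 for the granulocyte-monocyte-like and lymphoid-like classes, and 2 for the megakaryocyte-like (megakaryocyte-platelet markers) and erythroid-like classes. These numbers were set after the data were seen, so that the classes are ranges of a marker count and not cell types. The HSC-like class held 5815 cells, of which 8.05% were dividing, the megakaryocyte-like class 1064 (37.9%), the erythroid-like class 233 (73.0%), the granulocyte-monocyte-like class 1130 (61.3%), the lymphoid-like class 5059 (28.2%) and the cells of no class 15647 (31.5%). Many cells stood at the margin: 3557 HSC-like cells had exactly the minimum of markers, 5359 other cells had 1 too few, and 7582 cells detected 16 to 31 cycle genes. Cells of other classes, of several classes or with markers of other blood cell types (1355 cells of several classes, 73 mast-basophil-like and 170 of another type) were left out of the class comparisons. Median lymphoid and granulocyte-monocyte marker counts in the HSC-like cells were 1 and 1, and the megakaryocyte, erythroid, B cell, T and NK cell, neutrophil and macrophage-dendritic medians were 0. Dividing cells were deeper than non-dividing ones in every class, from 13500 against 6854 median UMIs in the HSC-like class to 33576.5 against 8682 in the erythroid-like class. The non-dividing erythroid-like group was thin (30 and 33 cells), and 14.3% of its cells were called doublets by Scrublet, against 3.75% to 9.21% in the other 11 groups. Counts were summed per mouse, class and state, so that each comparison rests on 2 mice, and levels in CPM are those of the sums unless stated otherwise. Fitted fold changes carry an additional scaling between sums (TMM) and can differ from the ratio of 2 CPM values.

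With all 6 classes weighted equally, all 3 D cyclin RNAs were lower in cells called dividing than in those called non-dividing, whereas Cdk4 and 3 of the 4 inhibitors were higher. The comparison sets cells called by S and G2/M genes against all others, and not cycling against resting cells. Ccnd3 fell by 0.74 ± 0.04 (SE) on the log2 scale, Ccnd2 by 0.58 ± 0.04 and Ccnd1 by 0.53 ± 0.12. Cdkn2c rose by 1.61 ± 0.07, Cdkn1a by 0.67 ± 0.20, Cdk4 by 0.52 ± 0.03 and Cdkn2d by 0.51 ± 0.07. Cdk6 (-0.04 ± 0.04), Cdkn1b (-0.03 ± 0.06) and Rb1 (0.05 ± 0.05) did not pass the test. Of all 13078 genes tested 54.1% passed it (edgeR's quasi-likelihood test, Benjamini-Hochberg adjusted p up to 0.05), so that 7 of 10 is to be read against a large background. The call on Cdkn1a was lost without the tdTomato-positive cells of mouse 2 (0.28, edgeR adjusted p = 0.44), and those on Ccnd1 and Cdkn1a after thinning each cell to 4000 UMIs (-0.28 and 0.73, edgeR adjusted p = 0.23 and 0.16). With library size alone in place of TMM, which shifted the median of all genes by -0.11, Cdk6 (-0.15) and Cdkn1b (-0.15) passed as lower. Without the thin erythroid-like class, an alternative chosen after the data were seen, Cdkn1a rose by 1.04 and Cdk6 by 0.15, while Ccnd1 fell by 0.26, and 61.8% of all genes tested passed.

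**Figure D1:**
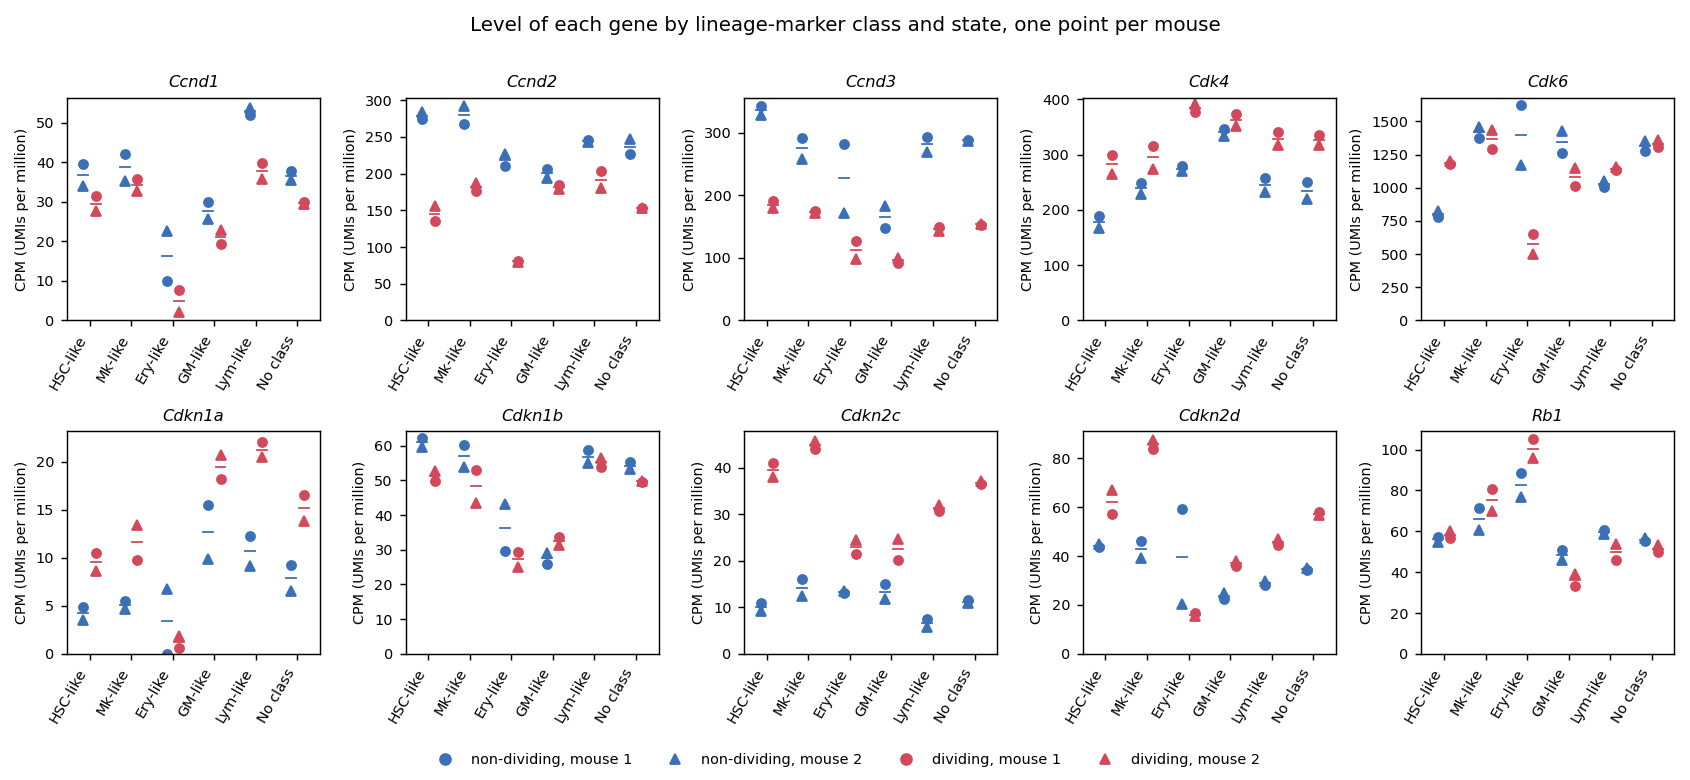
Level of each of the 10 genes (CPM, linear axis from 0) in the 6 lineage-marker classes. Blue symbols are non-dividing and red symbols dividing cells, circles mouse 1, triangles mouse 2, and the bar is the mean of both mice. In Ccnd3 every red symbol of a class lies below both blue symbols of that class, and in Cdkn2c above them.

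Of the D cyclins, Ccnd3 behaved most alike across classes. In HSC-like cells it stood at 343 and 328 CPM in the non-dividing sums of mice 1 and 2 and at 190 and 180 in the dividing ones. In lymphoid-like cells it stood at 293 and 270 against 150 and 143, and in granulocyte-monocyte-like cells at 148 and 183 against 91.9 and 99.9. The mice did not overlap between states in any of the 6 classes, although the share of all genes without overlap was not counted. Ccnd3 fell in each class, by 0.59 (megakaryocyte-like) to 0.87 (lymphoid-like) on the log2 scale.

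Ccnd2, which signals through the same kinases, followed the same direction less evenly. In HSC-like cells it stood at 274 and 284 CPM without and at 135 and 155 with division, a fall of 0.88 ± 0.08. In erythroid-like cells it went from 210 and 227 to 80.8 and 79.9, which is the lowest level of the gene in any group. It also fell in megakaryocyte-like cells (by 0.56), in cells of no class (by 0.53) and in lymphoid-like cells (by 0.27). Granulocyte-monocyte-like cells are the exception: 206 and 194 CPM against 185 and 179, a difference of -0.06 ± 0.08 that did not pass (edgeR adjusted p = 0.68).

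Ccnd1, the D cyclin best known as a target of growth factor signals, rested on fewer UMIs: 1429 in all non-dividing HSC-like cells, against 10941 for Ccnd2 and 13120 for Ccnd3. Its lymphoid-like values were 52.0 and 53.7 CPM in non-dividing and 39.8 and 35.8 in dividing cells, a fall of 0.39 ± 0.09. In cells of no class it fell by 0.20 ± 0.07 (37.8 and 35.4 against 30.0 and 29.4), a call that was lost when the mouse was not a term of the fit (adjusted p = 0.18 in edgeR). In erythroid-like cells it went from 9.86 and 22.7 to 7.78 and 2.07 CPM, a fall of 1.89 ± 0.61 that rests on 13 and 21 UMIs and was lost after thinning each cell to 4000 UMIs (-0.91, edgeR adjusted p = 0.63). HSC-like cells gave 39.6 and 33.9 against 31.3 and 27.6 CPM, which did not pass (-0.25 ± 0.13, edgeR adjusted p = 0.13) but did without the tdTomato-positive cells of mouse 1 (-0.32, edgeR adjusted p = 0.032). Granulocyte-monocyte-like and megakaryocyte-like cells did not pass either (-0.38 ± 0.17 and -0.10 ± 0.17), the former with a pass when the tdTomato-negative cells of mouse 2 was left out (-0.50).

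Cdk4 was higher with division in 5 of the 6 classes. Non-dividing HSC-like cells held 189 and 167 CPM, the lowest of the 12 groups, and dividing ones 300 and 266, a rise of 0.73 ± 0.07. It rose by 0.78 ± 0.12 in erythroid-like cells (279 and 270 against 376 and 391), by 0.58 ± 0.06 in cells of no class, by 0.50 ± 0.06 in lymphoid-like cells and by 0.37 ± 0.08 in megakaryocyte-like cells. Granulocyte-monocyte-like cells had 347 and 334 CPM without division and 373 and 352 with it, a difference of 0.18 ± 0.07 that did not pass (edgeR adjusted p = 0.076). That difference passed without the tdTomato-positive cells of mouse 1 (0.18, edgeR adjusted p = 0.00837) and with GEM-X counts alone (0.53).

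Cdk6, the partner kinase, did not move in 1 direction. In HSC-like cells it rose by 0.63 ± 0.09, from 779 and 827 CPM to 1178 and 1200. In lymphoid-like cells it rose by 0.22 ± 0.08 (1004 and 1053 against 1130 and 1153 CPM), a call lost without the mouse term (edgeR adjusted p = 0.089) and with library size alone in place of TMM (0.15, edgeR adjusted p = 0.15). In erythroid-like cells it fell by 1.001 ± 0.11, from 1621 and 1174 to 652 and 500 CPM, which was the lowest group of all. Granulocyte-monocyte-like cells gave 1263 and 1425 against 1014 and 1151 CPM, a difference of -0.23 ± 0.09 that did not pass (edgeR adjusted p = 0.062) but did without any 1 of 3 populations (-0.19 to -0.25). Levels in megakaryocyte-like cells and in cells of no class lay between 1279 and 1461 CPM in both states and both mice (0.01 ± 0.09 and 0.12 ± 0.08, not passing), where the second passed without the tdTomato-positive cells of mouse 1 (0.08).

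The CIP/KIP inhibitor Cdkn1a, a target of p53, was higher in dividing cells of the 4 classes with a call. HSC-like cells held 4.86 and 3.58 CPM without division and 10.6 and 8.61 with it, a rise of 1.25 ± 0.27 that was lost after thinning each cell (1.06, edgeR adjusted p = 0.072). In lymphoid-like cells the values were 12.3 and 9.17 against 22.1 and 20.5 (a rise of 1.02 ± 0.13), and in cells of no class 9.28 and 6.505 against 16.5 and 13.8 (a rise of 1.05 ± 0.10). Megakaryocyte-like cells showed 5.50 and 4.71 against 9.81 and 13.4, from 28 and 66 UMIs in all. The rise of 1.28 ± 0.37 there was lost without the tdTomato-negative cells of mouse 1 (0.996, edgeR adjusted p = 0.15) or that of mouse 2 (1.07, edgeR adjusted p = 0.081), and was -0.10 (adjusted p = 0.96) when a class needed 1 more marker, at which setting the HSC-like value was 0.38 (adjusted p = 0.74). Granulocyte-monocyte-like cells, at 15.5 and 9.84 against 18.2 and 20.7, did not pass (0.59 ± 0.22, edgeR adjusted p = 0.053), and did without the tdTomato-positive cells of mouse 1 (0.74, edgeR adjusted p = 0.012). The erythroid-like sums held 3 and 8 UMIs of Cdkn1a and give no usable value.

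Other p53 targets came from a list of 12 (among them Mdm2, Ccng1 and Bax), of which 11 were tested in the 4 classes where Cdkn1a passed. In dividing HSC-like cells none was higher and 5 were lower, where 40.2% of all genes passed. In lymphoid-like cells none was higher and 6 were lower (44.4% of all genes passed), and in cells of no class 1 was higher and 7 were lower (58.3%). In megakaryocyte-like cells none was higher and 1 was lower (24.2%). Nothing about the list is read from these counts. The median differences were -0.61, -0.57, -0.31 and -0.00248 in that order, beside all-gene medians of -0.03, -0.05, -0.02 and -0.03. The list was chosen with earlier results of these data known.

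Cdkn1b, the other CIP/KIP gene, showed nearly the same level in both states when S and G2/M cells were pooled. Its HSC-like values were 62.2 and 59.7 CPM without and 49.9 and 52.6 with division (-0.18 ± 0.09, edgeR adjusted p = 0.10), and its lymphoid-like values 58.6 and 54.9 against 53.9 and 56.4 (0.01 ± 0.07, edgeR adjusted p = 0.98). The interval of 2 SE in lymphoid-like cells ran from -0.12 to 0.15. The 1 class that passed was the granulocyte-monocyte-like, where Cdkn1b rose by 0.37 ± 0.13 (25.9 and 29.0 against 33.7 and 31.5). That call was lost without the tdTomato-negative cells of mouse 1 (0.18), without the tdTomato-positive cells of mouse 2 (0.31), and without the mouse term (0.36, edgeR adjusted p = 0.066).

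The INK4 inhibitors rose with division in most classes. Cdkn2c, whose protein binds CDK4 and CDK6, went from 11.01 and 9.13 to 40.9 and 38.0 CPM in HSC-like cells, a rise of 2.04 ± 0.13. In lymphoid-like cells it went from 7.54 and 5.82 to 30.6 and 32.04 (a rise of 2.23 ± 0.11), in cells of no class from 11.6 and 10.9 to 36.5 and 37.1 (1.81 ± 0.07), and in megakaryocyte-like cells from 16.04 and 12.4 to 43.9 and 45.8 (1.76 ± 0.18). Granulocyte-monocyte-like cells ended lower, at 20.3 and 24.7 from 14.98 and 11.8 CPM, a rise of 0.74 ± 0.18. Erythroid-like cells had 13.2 and 13.6 against 21.6 and 24.4 (1.10 ± 0.43, edgeR adjusted p = 0.055), which passed without the mouse term (1.09, edgeR adjusted p = 0.036).

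Cdkn2d rose in the same 5 classes. The largest of these was 1.09 ± 0.13 in megakaryocyte-like cells, from 46.3 and 39.1 to 83.9 and 87.4 CPM, the highest group for this gene. HSC-like cells went from 43.7 and 44.9 to 57.2 and 67.1 (a rise of 0.56 ± 0.10), lymphoid-like cells from 28.2 and 29.7 to 44.6 and 47.2 (0.74 ± 0.08), granulocyte-monocyte-like cells from 22.5 and 25.1 to 36.1 and 38.1 (0.74 ± 0.15), and cells of no class from 34.4 and 35.2 to 57.9 and 56.6 (0.82 ± 0.06). Erythroid-like cells went the other way in both mice, from 59.2 and 20.4 to 16.8 and 15.3, without passing (-0.91 ± 0.35, edgeR adjusted p = 0.053). That difference passed without the tdTomato-positive cells of mouse 2 (-1.15, edgeR adjusted p = 0.025) and without the mouse term (-0.92, edgeR adjusted p = 0.031).

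Rb1, the target of the cyclin D kinases, differed little. In HSC-like cells it stood at 57.4 and 55.0 CPM without and 56.6 and 60.3 with division, and the mice of the states overlapped (0.12 ± 0.10, edgeR adjusted p = 0.34). It fell by 0.39 ± 0.12 in granulocyte-monocyte-like cells (51.1 and 45.8 against 33.4 and 39.0) and by 0.22 ± 0.08 in lymphoid-like cells (60.8 and 58.6 against 45.9 and 53.9), and rose by 0.56 ± 0.20 in erythroid-like cells (88.8 and 77.1 against 105.3 and 95.7). None of these 3 calls was stable. The granulocyte-monocyte-like one was lost without the tdTomato-negative cells (-0.42, adjusted p = 0.093) or the tdTomato-positive cells of mouse 1 (-0.25, adjusted p = 0.16). The lymphoid-like one was lost without the tdTomato-negative cells of mouse 1 (-0.23, adjusted p = 0.097), without the tdTomato-positive cells of mouse 2 (-0.19, adjusted p = 0.054) and without the mouse term (-0.21, adjusted p = 0.084). The erythroid-like one was lost without the tdTomato-positive cells of mouse 2 (0.48, adjusted p = 0.11) and with library size alone (0.27, adjusted p = 0.39, all in edgeR).

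**Figure D2:**
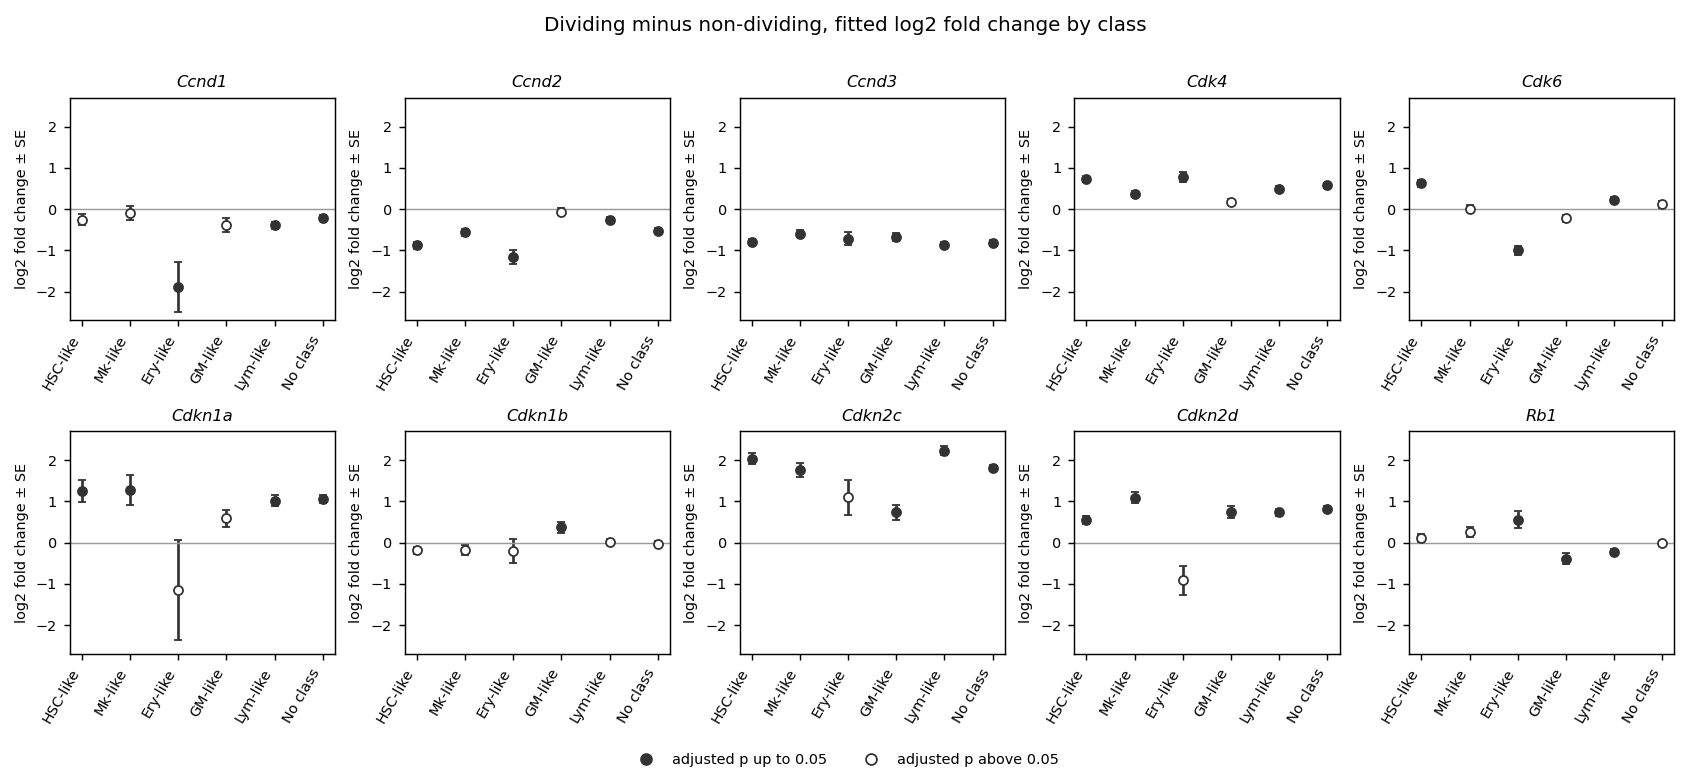
Fitted difference between dividing and non-dividing cells (log2 fold change, with the standard error as bar) for each gene in the 6 classes. Filled points passed the test and open points did not. Ccnd3 is below 0 in all 6 classes, while Cdk6 runs from 0.63 in HSC-like to -1.001 in erythroid-like cells.

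Across classes, 40 of the 60 single tests passed. They were 7 of 10 genes in HSC-like cells (40.2% of all genes tested passed there), 6 in megakaryocyte-like (24.2%), 6 in erythroid-like (28.1%), 5 in granulocyte-monocyte-like (20.2%), 9 in lymphoid-like (44.4%) and 7 in cells of no class (58.3%). Non-dividing granulocyte-monocyte-like cells already detected a median of 9 S and 5 G2/M genes, against 4 and 4 in HSC-like cells, and held 3832 and 3180 CPM of the S list against 1673 and 1510. Non-dividing erythroid-like sums stood at 3067 and 3325 CPM of that list. The part of this in the differences of both classes was not tested.

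Dividing cells were next divided into 4879 S-type and 3708 G2/M-type cells, by which list had more UMIs relative to its mean over dividing cells. All 10 genes differed between these phases, beside 54.5% of 15487 genes tested. Ccnd1 differed most: it stood at 47.2 and 42.4 CPM in the S-type cells of mice 1 and 2 and at 11.96 and 10.2 in G2/M-type cells, with 41.5 and 36.7 in non-dividing cells. It fell by 1.99 ± 0.06 from S-type to G2/M-type and rose by 0.34 ± 0.04 from non-dividing to S-type cells. The average over both phases given above thus combined a level close to that of non-dividing cells with one well below it.

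The same order of S-type above G2/M-type held for Ccnd1 in both mice of each class. In S-type HSC-like cells it was 48.4 and 41.2 CPM and in G2/M-type ones 7.64 and 10.2. In S-type lymphoid-like cells it was 62.7 and 58.3, and in G2/M-type ones 20.6 and 16.2. Erythroid-like cells held 16 and 5 UMIs of Ccnd1 in the 2 phases, too few for a comparison.

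Ccnd2 fell by 0.52 ± 0.06 between the phases (197 and 185 against 139 and 123 CPM) and lay below non-dividing cells (241 and 257) in both, with all classes pooled. Within classes, S-type cells were above non-dividing ones only in lymphoid-like cells of mouse 1 (260 against 245) and granulocyte-monocyte-like cells of mouse 2 (195.1 against 194.4). Ccnd2 rose from S-type to G2/M-type only in erythroid-like cells of mouse 1 (72.0 to 96.9). Ccnd3 had its lowest level in S-type cells (141 and 143 CPM, against 294 and 293 without division) and was 0.30 ± 0.04 higher in G2/M-type cells (162 and 183). Cdk4 was highest in S-type cells, 373 and 361 CPM, and fell by 0.32 ± 0.04 to 307 and 273, still above the 243 and 210 of non-dividing cells. Within classes, its G2/M-type level was below the non-dividing one only in megakaryocyte-like cells (247 and 225 against 249 and 228) and granulocyte-monocyte-like cells of mouse 2 (327 against 334). Without the mouse term the call on Cdk4 between the phases was lost (edgeR adjusted p = 0.078). Cdk6 was 0.12 ± 0.03 higher in G2/M-type cells (1232 and 1306 against 1174 and 1200 CPM), a call also lost without the mouse term (edgeR adjusted p = 0.16). Within classes, Cdk6 was lower in G2/M-type than in S-type cells only in mouse 1 of HSC-like (1123 against 1218) and granulocyte-monocyte-like cells (991 against 1046). Ccnd3 was lower in G2/M-type cells only in mouse 1 of erythroid-like (93.5 against 145.9) and granulocyte-monocyte-like (90.5 against 93.8) and mouse 2 of megakaryocyte-like cells (168.6 against 174.1).

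The inhibitors separated by phase. Cdkn1b, at 56.9 and 55.0 CPM in non-dividing cells, fell by 0.74 ± 0.04 to 30.9 and 29.6 in S-type cells and was 66.5 and 67.3 in G2/M-type cells, 1.17 ± 0.04 above S-type. Cdkn2d was 34.5 and 37.1 without division and 32.02 and 34.6 in S-type cells (0.04 ± 0.04, not passing), and rose by 1.20 ± 0.04 from there to 73.3 and 77.4 in G2/M-type cells. Cdkn2c rose in both steps, from 10.7 and 10.1 to 22.4 and 23.4 and then to 44.7 and 50.2 CPM. These levels pool all classes, and no fit compared the phases within a class. In erythroid-like cells Cdkn2c was lower in G2/M-type (18.7 and 17.1) than in S-type cells (23.1 and 31.2). In granulocyte-monocyte-like cells of mouse 1 it went from 14.98 without division to 13.9 in S-type cells. Its other steps within classes were upward. Cdkn1b hardly fell into S-type granulocyte-monocyte-like cells (25.9 and 29.0 to 25.5 and 25.6). Cdkn1a was highest in S-type cells, 19.5 and 17.0 against 16.1 and 12.3 in G2/M-type and 9.50 and 6.21 in non-dividing cells. The difference of Cdkn1a between the phases (-0.34 ± 0.09) was lost without the tdTomato-negative cells of mouse 1 (-0.32, edgeR adjusted p = 0.067) and without the mouse term (edgeR adjusted p = 0.36). Of the 12 p53 targets, 4 were higher and 6 lower in S-type than in non-dividing cells, where 68.4% of all genes passed, with a median of -0.28 beside -0.02 for all genes.

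Rb1 also had a phase pattern: 64.6 and 68.9 CPM in S-type cells, 32.8 and 44.3 in G2/M-type and 57.9 and 56.7 in non-dividing ones, a fall of 0.79 ± 0.08 between the phases. Relative to non-dividing cells 9 of the 10 genes passed in S-type cells (68.4% of all genes did) and 10 of 10 in G2/M-type cells (66.6%). S-type and G2/M-type cells had median depths of 13619 and 16406 UMIs, against 7707 in non-dividing cells, and these fits have 2 residual degrees of freedom.

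**Figure D3:**
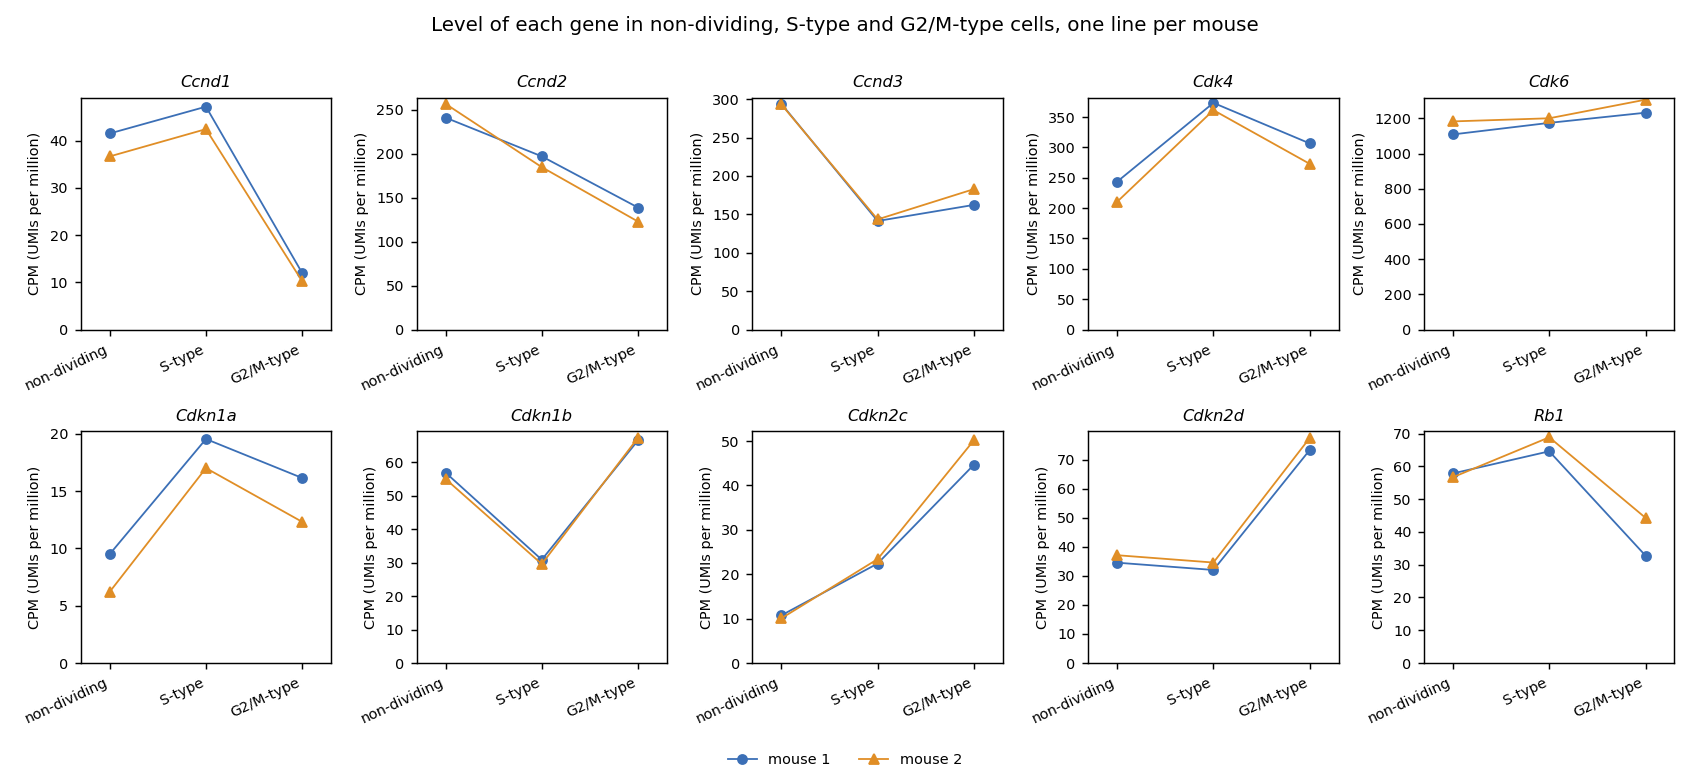
Level of each gene (CPM, linear axis from 0) in non-dividing, S-type and G2/M-type cells, over all classes, with 1 line per mouse. Ccnd1 drops from 47.2 and 42.4 in S-type to 11.96 and 10.2 in G2/M-type cells, whereas Cdkn1b and Cdkn2d rise between the same phases.

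Grouping cells by the number of cycle genes detected, without a threshold, showed where within the non-dividing and dividing groups the levels moved. The largest group, the cells of no class, is given here as a description, with bins of 493 to 1841 cells per mouse. Ccnd1 was 25.2 and 23.6 CPM with 0 to 5 cycle genes, 54.7 and 54.8 with 20 to 23, and 15.1 and 18.2 with 36 or more. Ccnd3 went down from 358 and 350 to 190 and 182 over the same non-dividing bins, and to 141 and 139 with 36 or more. Cdk4 went up from 180 and 167 to 337 and 316 CPM by 20 to 23 cycle genes. The change in Ccnd3 and Cdk4 was therefore largely in place below the threshold of 24 genes, while Ccnd2 (222 and 239, then 223 and 247) was still at its starting level there and was 120.4 and 119.8 with 36 or more.

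Among the inhibitors, Cdkn1b passed through a low point of 38.3 and 37.7 CPM at 28 to 31 cycle genes, between 60.8 and 60.8 with 0 to 5 and 64.9 and 65.3 with 36 or more. Cdkn2d had its low point earlier, 24.01 and 25.5 at 20 to 23, between 45.3 and 43.3 at the start and 80.4 and 80.3 at the end. Cdkn2c stayed between 9.15 and 15.9 CPM up to 27 cycle genes and reached 54.6 and 53.9 in the last bin. HSC-like cells, in smaller bins of 43 to 1214 cells per mouse, followed a similar, less even course for these 3 genes, with 73.5 and 64.9 CPM of Cdkn2c and 89.7 and 93.5 of Cdkn2d in the last bin. HSC-like cells differed in Cdk6, which went from 629 and 664 to 1229 and 1113 by 20 to 23 cycle genes, where cells of no class went from 1117 and 1273 to 1372 and 1415.

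**Figure D4:**
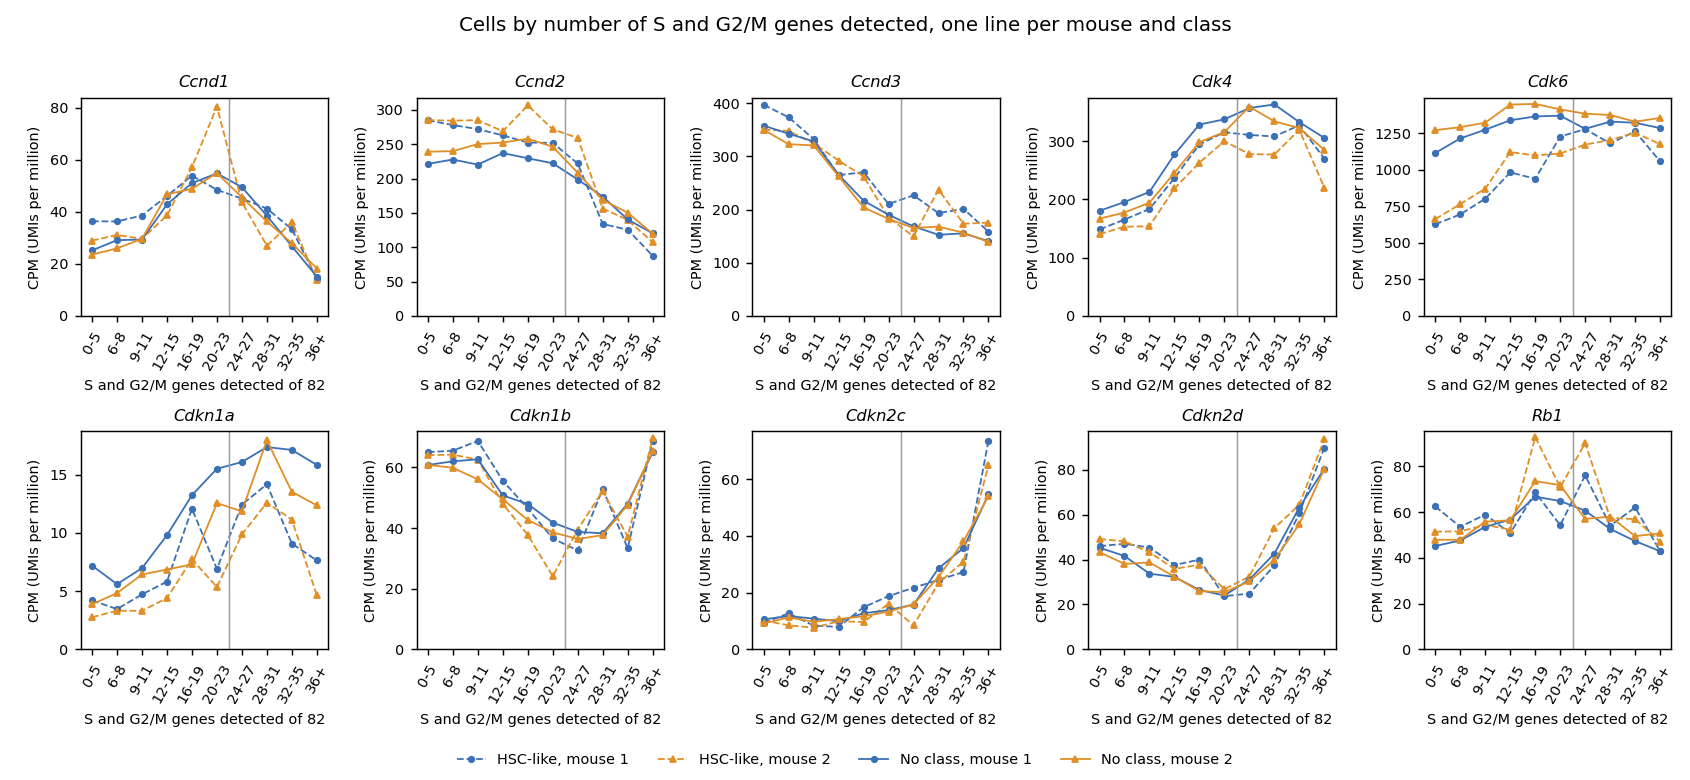
Level of each gene (CPM, linear axis from 0) in cells grouped by the number of S and G2/M genes detected of 82, for HSC-like cells (dashed) and cells of no class (solid), with 1 line per mouse. The grey line marks the threshold of 24 genes between non-dividing and dividing cells. Ccnd1 is highest next to that line and lowest at the right end.

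Among non-dividing cells, the HSC-like class stood apart in its kinases. Both Cdk4 and Cdk6 were higher in each of the other 5 classes: Cdk4 by 0.44 ± 0.06 (no class) to 1.17 ± 0.07 (granulocyte-monocyte-like), and Cdk6 by 0.45 ± 0.08 (lymphoid-like) to 0.97 ± 0.09 (granulocyte-monocyte-like). Ccnd3 was lower in each of the 5, by 0.17 ± 0.06 in lymphoid-like cells to 0.82 ± 0.08 in granulocyte-monocyte-like cells. These non-dividing classes also held more RNA of the S list than the 1673 and 1510 CPM of HSC-like cells. It stood at 2389 and 2164 in lymphoid-like, 2615 and 2312 in unclassed and 2803 and 2713 in megakaryocyte-like cells. Erythroid-like cells held 3067 and 3325 and granulocyte-monocyte-like cells 3832 and 3180. The part of this in the class differences was not tested. Of the 10 genes 3 passed in megakaryocyte-like cells (24.1% of all genes tested), 4 in erythroid-like (28.9%), 8 in granulocyte-monocyte-like (57.7%), 8 in lymphoid-like (44.2%) and 6 in cells of no class (33.6%). The smaller Ccnd3 differences were lost without the mouse term in lymphoid-like (edgeR adjusted p = 0.23), megakaryocyte-like (edgeR adjusted p = 0.12) and unclassed cells (edgeR adjusted p = 0.25). The lymphoid-like one was also lost without the tdTomato-positive cells of mouse 2 (-0.15) and the megakaryocyte-like one without the tdTomato-negative cells of mouse 2 (-0.14). Library size alone, in place of TMM, shifted the median of all genes by -0.24 for the granulocyte-monocyte-like and by -0.11 for the erythroid-like class.

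Ccnd1 was higher in lymphoid-like than in HSC-like non-dividing cells, by 0.60 ± 0.08 (52.0 and 53.7 against 39.6 and 33.9 CPM), and passed in no other class. Ccnd2 was lower in granulocyte-monocyte-like cells (-0.24 ± 0.08) and in cells of no class (-0.20 ± 0.06). The first of these was lost without the tdTomato-negative cells of mouse 2 (-0.19, edgeR adjusted p = 0.059) and the second without the mouse term (edgeR adjusted p = 0.11).

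Cdkn1a was higher by 1.88 ± 0.26 in granulocyte-monocyte-like, by 1.46 ± 0.16 in lymphoid-like and by 0.95 ± 0.15 in unclassed cells than the 4.86 and 3.58 CPM of HSC-like cells. Cdkn1b was lower in granulocyte-monocyte-like cells (-0.94 ± 0.11), at 25.9 and 29.0 CPM against 62.2 and 59.7. Cdkn2d was lower in granulocyte-monocyte-like (-0.68 ± 0.14), lymphoid-like (-0.53 ± 0.08) and unclassed cells (-0.31 ± 0.07). Cdkn2c was higher in granulocyte-monocyte-like cells (0.70 ± 0.19) and lower in lymphoid-like cells (-0.44 ± 0.13). The former was lost without the tdTomato-negative cells of mouse 1 (0.60, edgeR adjusted p = 0.055) and was -0.12 with GEM-X counts alone, and the latter was lost without the tdTomato-positive cells of mouse 1 (-0.35, edgeR adjusted p = 0.057). Rb1 was higher in erythroid-like (0.65 ± 0.22) and lymphoid-like cells (0.18 ± 0.07). With library size alone the values were 0.54 (edgeR adjusted p = 0.063) and 0.09 (edgeR adjusted p = 0.29), and the lymphoid-like call was also lost without the tdTomato-negative cells of mouse 1, without the tdTomato-positive cells of mouse 2 and without the mouse term (0.15 to 0.18).

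The count of HSC markers detected, taken as a scale over the 21959 non-dividing cells less 52 of another type, gave the same contrasts in steps and is given as a description. From cells with no HSC marker to cells with 7 or more, Cdk6 went from 1165 and 1162 CPM to 384 and 544, after a high of 1298 and 1468 at 2 markers. Cdk4 went from 312 and 306 to 138 and 142, and Cdkn1a from 19.4 and 12.6 to 4.24 and 2.697. Ccnd3 went up from 180 and 181 to 352 and 358, Cdkn1b from 44.1 and 34.7 to 72.0 and 71.7, and Cdkn2d from 18.9 and 21.5 to 49.6 and 48.9. Ccnd2 was highest in the last bin, 329 and 360, from a low of 222 and 241 at 3 markers. Ccnd1, Cdkn2c and Rb1 had no such course. The end bins held 171 and 153 cells (no marker) and 329 and 389 cells (7 or more) of mice 1 and 2.

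**Figure D5:**
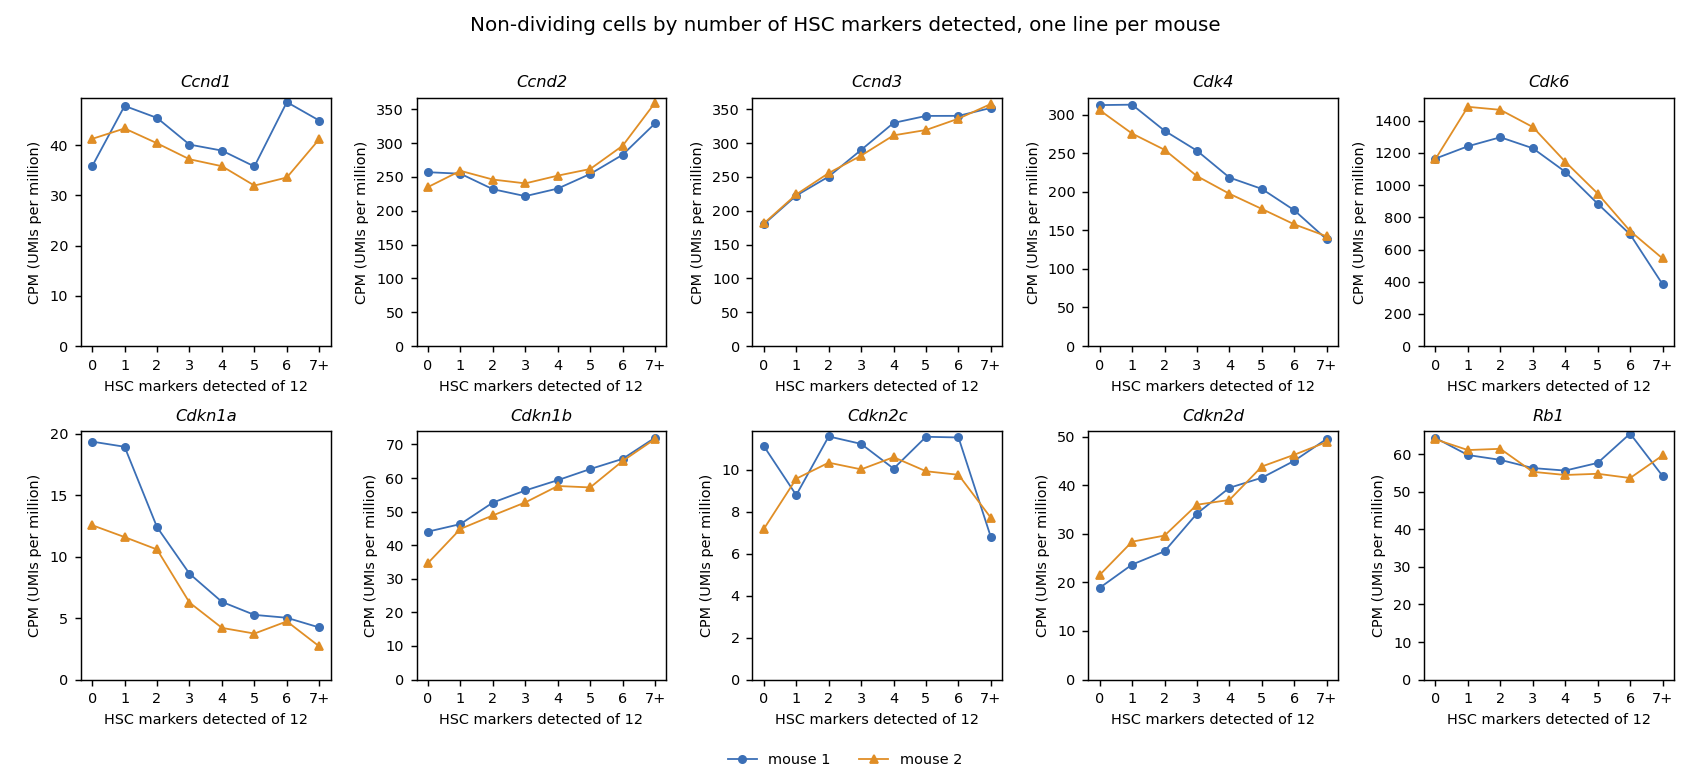
Level of each gene (CPM, linear axis from 0) in non-dividing cells grouped by the number of the 12 HSC markers detected, with 1 line per mouse. Cdk6 and Cdk4 run down to 384 and 544 and to 138 and 142 CPM at the right end, while Ccnd3, Cdkn1b and Cdkn2d run up.

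Whether division went with a different change in a class than in HSC-like cells was tested as the difference of the 2 log2 fold changes. All 5 of these tests share the HSC-like cells as reference. Of 50 such differences 11 passed. Cdk6 passed in 4 classes, all with a smaller or opposite change: erythroid-like (-1.63 ± 0.14), granulocyte-monocyte-like (-0.86 ± 0.12), megakaryocyte-like (-0.62 ± 0.12) and unclassed cells (-0.51 ± 0.12), where the last was lost without the mouse term (edgeR adjusted p = 0.19). In lymphoid-like cells Cdk6 gave -0.41 ± 0.12, which did not pass (edgeR adjusted p = 0.079) but did without any 1 of 3 populations (-0.38 to -0.42). Ccnd2 fell less in granulocyte-monocyte-like (0.82 ± 0.12) and lymphoid-like cells (0.61 ± 0.11) than in HSC-like cells. Granulocyte-monocyte-like cells also differed in Cdk4 (-0.55 ± 0.10), Cdkn2c (-1.30 ± 0.24), Cdkn1b (0.56 ± 0.16) and Rb1 (-0.51 ± 0.16), and erythroid-like cells in Cdkn2d (-1.47 ± 0.38). The Cdkn1b difference was lost without the tdTomato-negative cells of mouse 1 (0.32) and without the tdTomato-positive cells of mouse 2 (0.44). The Rb1 difference was lost without the tdTomato-negative cells of mouse 1 (-0.60), the tdTomato-positive cells of mouse 1 (-0.34) or the tdTomato-negative cells of mouse 2 (-0.54), and without the mouse term (-0.50, edgeR adjusted p = 0.06). With GEM-X counts alone the Cdk4 and Cdkn2c differences did not pass (-0.23 and -0.75), and with v3.1 counts alone the Cdkn2c, Cdkn1b and Rb1 differences (-1.01, 0.22 and -0.10). By class this was 6 of 10 genes in granulocyte-monocyte-like (10.0% of all genes tested passed), 2 in erythroid-like (16.2%), and 1 each in lymphoid-like (1.94%), megakaryocyte-like (1.85%) and unclassed cells (1.25%).

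Ordered by mean level over the 12 groups, Cdk4 ranged over 2.16-fold from the highest group to the lowest, the narrowest range of the 10 genes. Most neighbours in such an order overlapped between mice: of 11 steps, 2 were free of overlap for Cdkn1a, 7 for Cdkn2c, 6 for Cdkn2d, 5 each for Ccnd2 and Cdk4, and 4 each for Ccnd1, Ccnd3, Cdk6, Cdkn1b and Rb1. The top group was free of overlap with the next for Ccnd1 (non-dividing lymphoid-like), Ccnd3 (non-dividing HSC-like), Cdk4 and Rb1 (dividing erythroid-like), and Cdkn2c and Cdkn2d (dividing megakaryocyte-like). The share of all genes with such steps was not counted, so that nothing about these genes is read from the counts.

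Similar patterns over the 12 group means were sought among 9245 genes with a mean of at least 10 CPM, by Pearson r of log2(CPM + 1) after TMM scaling. This is a description over groups that share mice and libraries. The most similar genes were Cap1, Dock11 and P2ry14 for Ccnd1 (r = 0.99, 0.98 and 0.98), and 2310015A10Rik, Gm9856 and Letm2 for Ccnd3 (0.99, 0.96 and 0.96). For Ccnd2 they were Rrnad1, Irak4 and Arhgap45 (0.95, 0.94 and 0.94). Cdk4 was nearest to Rbm3, Rnf7 and Ndufa4 (0.99, 0.99 and 0.98), and Cdk6 to 1700109H08Rik, Spast and Nkg7 (0.88, 0.87 and 0.86), the weakest of the set. For Cdkn2c they were Ube2t, Diaph3 and Ncapd3 (each 0.98), for Cdkn2d Arf2, Pign and H1fx (0.94, 0.93 and 0.93), for Cdkn1a Capza2, Tmem43 and Mgat5 (0.95, 0.94 and 0.94), for Cdkn1b Prrc2b, Ythdc1 and Gpbp1l1 (0.96, 0.95 and 0.95), and for Rb1 Mgll, Hectd4 and Ubxn2a (0.97, 0.97 and 0.96).

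Other genes of the pathway were taken from a list of 34 that shares no gene with the lists used to call division, and 32 were tested. Over the mean of the classes, 20 rose and 7 fell with division, where 54.1% of all genes passed, with a median of 0.48 beside -0.01 for all genes. Cyclin A2 (Ccna2), which acts with CDK2 in S phase and beyond, rose by 4.26 ± 0.06, and the E2F family members E2f2, E2f8 and E2f7 rose by 3.73 ± 0.13, 3.09 ± 0.06 and 3.05 ± 0.10. The phosphatase gene Cdc25b rose by 2.89 ± 0.17 and cyclin E1 (Ccne1) by 2.28 ± 0.14. From S-type to G2/M-type cells 11 of 32 rose and 17 fell, where 54.5% of all genes passed: E2f1 (-3.05 ± 0.10), Ccne2 (-2.85 ± 0.11) and Ccne1 (-1.78 ± 0.24) were lower, and Cdc25b (2.89 ± 0.07), Ccng2 (2.17 ± 0.06) and Ccna2 (1.41 ± 0.05) higher.

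Cdkn1c, the third CIP/KIP gene, was lower in dividing than in non-dividing HSC-like cells, where Cdkn1a was higher and Cdkn1b did not pass. Like Cdkn1b, it was lower in non-dividing granulocyte-monocyte-like than in HSC-like cells, and no test compared these genes with each other. CPM in this paragraph are given after TMM scaling, unlike those of the 10 genes. Cdkn1c stood at 25.9 and 24.1 CPM in non-dividing and 14.1 and 17.1 in dividing HSC-like cells, a fall of 0.67 ± 0.15. It fell by 0.60 ± 0.19 over the mean of the classes, which includes the thin erythroid-like class (12.7 and 2.23 against 2.06 and 1.88 CPM). Both mice also fell in cells of no class (10.2 and 9.98 against 6.82 and 6.42). The mice went in opposite directions in megakaryocyte-like (12.6 and 10.1 against 8.20 and 10.7), lymphoid-like (4.13 and 4.63 against 3.28 and 4.82) and granulocyte-monocyte-like cells (1.48 and 2.53 against 1.93 and 1.12). Among non-dividing cells, all other groups were lower than the HSC-like one, from 12.6 and 10.1 in megakaryocyte-like (-1.17 ± 0.18) to 1.48 and 2.53 CPM in granulocyte-monocyte-like cells (-3.74 ± 0.29). Non-dividing granulocyte-monocyte-like cells also held more of several S and G2/M associated genes of the list than HSC-like ones, such as Ccna2 (24.8 and 26.3 against 2.6 and 1.9 CPM), E2f8 (25.1 and 21.7 against 2.9 and 2.8) and E2f1 (54.1 and 44.4 against 12.95 and 12.2).

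The comparison between tdTomato-positive and tdTomato-negative cells, for which the mice were made, gave no call for any of the 10 genes. In all cells 0.454% of 16511 genes passed in edgeR, in non-dividing HSC-like cells 0.0% of 13278 and in dividing cells 1.23% of 14661. At an unadjusted p up to 0.05 the number of the 10 genes was 3, 1 and 1. Of all genes tested, 1013 of 16511, 615 of 13278 and 855 of 14661 had such a p in edgeR. DESeq2 called 0 of the 10 genes in each set as well (0, 1 and 0 unadjusted). Nothing about the 10 genes is read from these unadjusted counts. Cdkn1a had 14.7 and 10.4 CPM in the positive and 12.7 and 9.49 in the negative cells of mice 1 and 2 (0.19 ± 0.06, edgeR adjusted p = 0.31). Cdkn2c had 21.8 and 22.4 against 20.3 and 19.9 (0.15 ± 0.05, edgeR adjusted p = 0.38). In non-dividing HSC-like cells, Cdk6 had 733 and 788 CPM in the positive against 792 and 838 in the negative cells (-0.10 ± 0.03, edgeR adjusted p = 0.98). Intervals of 2 SE over all cells lay within -0.19 and 0.32 for all 10 genes, and each fit has 1 residual degree of freedom. Of the other pathway genes, Ccne1 was lower in dividing positive cells (-0.37 ± 0.09, edgeR adjusted p = 0.0097), with all classes pooled. After TMM scaling, Ccne1 stood at 134 and 180 CPM in dividing erythroid-like cells and at 10.9 and 10.3 in dividing cells of no class. In mice 1 and 2, 21.4% and 12.3% of the former cells were tdTomato-positive, and 23.5% and 25.3% of the latter. The part of this class mix in the Ccne1 difference was not tested.

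The chemistries gave different levels of every gene of the set, in a setting where 74.7% of 15130 genes differed between them. Cdkn1b was 65.8 to 70.0 CPM in the 4 populations with GEM-X and 28.9 to 32.7 with v3.1, a difference of 1.12 ± 0.03. Ccnd2 was higher with GEM-X by 0.56 ± 0.02, Ccnd1 by 0.41 ± 0.04, Rb1 by 0.37 ± 0.03 and Cdkn1a by 0.31 ± 0.05. Ccnd3 was lower with GEM-X (179 to 197 against 279 to 308 CPM, -0.62 ± 0.01), as were Cdk4 (-0.39 ± 0.01), Cdkn2d (-0.22 ± 0.03), Cdkn2c (-0.15 ± 0.04) and Cdk6 (-0.07 ± 0.02). The direction was shared by 4 of 4 populations for each gene, although the values of Cdk6 and Cdkn1a overlapped between the chemistries. Without the population as a term the calls on Cdk6, Cdkn1a and Cdkn2c were lost (edgeR adjusted p = 0.074, 0.16 and 0.083). The version of Cell Ranger differed with the chemistry, so that chemistry and counting cannot be told apart. Both chemistries were summed in every comparison above.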

How the data were processed

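Single-cell RNA was counted by the authors as UMI counts per gene and cell barcode, and the deposited hashtag libraries hold UMI counts per hashtag. Cell Ranger 8.0.1 made the GEM-X and 7.1.0 the v3.1 matrices per the file headers, whereas the submitters' processing notes name Cell Ranger 7.0.0 and mm10. The chemistry of a matrix was read from its file, since no label states it. Barcodes under 1000 genes or over 10% mitochondrial UMIs were dropped (371 and 1034 of them). A hashtag counted as present at a posterior above 0.5 in a 2-component mixture of its log counts, and a cell entered only when it carried 1 hashtag. Those with several (2091 and 2364) are doublets and were left out, as were 63 and 13 cells with none. Scrublet's automatic threshold called 0 cells, so that its threshold was set from the hashtag doublets and its calls served only as an alternative. Cells were thinned to 4000 UMIs to give classes and states, and 1784 cells below that were left out.

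Full counts were summed per mouse, class and state (24 sums of at least 20 cells, 13078 genes) and tested with edgeR 4.0.16 (R 4.3.3, limma 3.58.1): quasi-likelihood test, TMM, a filter on low counts, a dispersion floor of 1e-04, and the mouse as a term. Sums with the same mouse number come from the same animal, which is what pairs them. Phase, tdTomato and chemistry comparisons used sums of their own. Adjusted p-values are Benjamini-Hochberg over all genes, with a threshold of 0.05, and intervals are 2 SE. With the mouse as a term, p-values of the class fit measure how unevenly the 2 mice differ from group to group. That spread is pooled over all 24 sums (11 residual degrees of freedom), and p-values do not measure the spread of levels between animals. Alternatives were other scaling (library size, DESeq2 size factors), DESeq2 1.42.0, no filter, no mouse term, each chemistry alone, each population or mouse left out, thinning, Scrublet calls, sums per population, and other rules for classes and states. A dividing cell was S-type or G2/M-type by which list's UMIs were higher relative to that list's mean over dividing cells. All 10 genes are named in every comparison, of the other pathway genes up to 6 by the largest change among those passing with at least 10 CPM, and Cdkn1c always. For each of the 10 genes, 3 similar genes are named by correlation over group means. Genes and lists were chosen with earlier results of these data known, and class and state thresholds were set on these cells. The fits were tested on simulated data. Python 3.11.15 with numpy 2.4.6, scipy 1.17.1, scikit-learn 1.9.0, scanpy 1.11.5 and matplotlib 3.10.9 was used.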

Additional observations from a re-analysis of the deposited data

Results flagged for a closer look

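The change with division differed between a class and the HSC-like class, by a test of the difference itself, in 11 of 50 cases (edgeR's quasi-likelihood test, adjusted over all genes). All share the HSC-like cells as reference. Cdk6 was among them 4 times: -1.63 (adjusted p = 1.2e-09) in erythroid-like, -0.86 (5.5e-06) in granulocyte-monocyte-like, -0.62 (0.0035) in megakaryocyte-like and -0.51 (0.019) in unclassed cells. Ccnd2 differed by 0.82 (5.5e-06) in granulocyte-monocyte-like and 0.61 (0.00078) in lymphoid-like cells. The other 5 were Cdk4 (-0.55, 0.00025), Cdkn1b (0.56, 0.021), Cdkn2c (-1.30, 0.00023) and Rb1 (-0.51, 0.036) in granulocyte-monocyte-like cells and Cdkn2d in erythroid-like cells (-1.47, 0.0071). The Cdkn2d value was -0.74 without mouse 1 and -1.97 without mouse 2, neither with a test. Non-dividing erythroid-like and granulocyte-monocyte-like sums held 3067 and 3325 and 3832 and 3180 CPM of the S-phase list, against 1673 and 1510 in HSC-like cells, and their part in these differences was not tested.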

How the results depend on the processing

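Across all alternatives the number of calls stayed within 1.5 times the main value over the classes that the alternative fitted (for differences in the change, the 6 calls with v3.1 alone stand against 9 over the same 4 classes). The calls were 6 to 9 for the mean over classes (7), 31 to 41 within classes (40 of 60), 22 to 39 against HSC-like cells (29), 6 to 15 for differences in the change with division (11), 7 to 10 between phases (10), 7 to 10 between chemistries (10) and 0 by tdTomato. Where the erythroid-like class fell below 20 cells per sum (1 chemistry alone, 3 of the 4 populations left out, cells near the threshold left out, 1 more marker), it was not fitted, and the mean over classes was not run. A direction turned 7 times: with the G2/M list alone for Cdkn1b over the mean of classes (0.30) and in unclassed cells (0.42), for Rb1 over the mean (-0.26) and for Ccnd1 in granulocyte-monocyte-like against HSC-like cells (0.27), without the erythroid-like class for Cdk6 (0.15), with 1 more marker for Cdkn1a in megakaryocyte-like cells (-0.10), and with GEM-X alone for Cdkn2c in granulocyte-monocyte-like cells (-0.12). The cause was not tested. Without the replicate block by mouse, 7 genes were called over the mean of classes, 38 within classes, 24 against HSC-like cells, 9 for differences in the change and 7 between phases. Without the block by population 7 were called between chemistries. The block changed no call of the 10 genes other than those given above with their values. The count of all genes called by tdTomato moved more: 75 in all cells with a range of 0 to 202, 0 in HSC-like non-dividing cells with a range of 0 to 7, and 181 in dividing cells with a range of 0 to 189. Few UMIs limit Cdkn1a, Cdkn2c and the erythroid-like class most.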
